A study of Homo sapiens with 647 samples.

Results

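The endoplasmic reticulum (ER) unfolded protein genes are 37 genes listed by symbol: chaperones and folding enzymes of the ER lumen, the stress sensors of its membrane, the machinery that removes misfolded proteins, and parts of the translocation and export machinery. All 37 of 37 were found in the table of read counts, among 54592 genes, and no threshold on a measured value chose them. They were measured by SMART-Seq2 RNA sequencing in 647 libraries of T47D, an estrogen receptor positive breast cancer cell line. The lines were T47D infected with pLX307 lentivirus carrying FGFR2_WT, FGFR2_M538I, FGFR2_N550K or FGFR2_K660N (together the FGFR2 lines), FGFR1 (the FGFR1 line), the ligand FGF3 (the FGF3 line) or GFP, and parental cells. Parental and GFP cells together are called the control lines. The labels name neither the promoter nor whether a line is a clone, and no infection is given for parental cells. Whether libraries of a group came from separate cultures is not stated, so that p-values measure the spread between libraries, which may be technical. The treatments, given for 24 h after 48 h of plating, were fulvestrant (Fulv, 100 nM, a degrader of the estrogen receptor) and palbociclib (Palbo, 1 uM, an inhibitor of the cell cycle kinases CDK4/6). Others were FIIN-3 (100 nM, an inhibitor of FGF receptors) and trametinib (Tram, 500 nM, an inhibitor of the kinase MEK below the receptors). FGF2 (a ligand of FGF receptors, dose not given in the sources used here), combinations of these and DMSO completed the arms. The FGF3 line had no FGF2 arm, and in set 2 its untreated libraries are labelled control. The numbers in the library titles start over once, and the 2 series of numbers were analysed as 2 sets. Set 1 (64 groups of line and treatment) held the DMSO, FGF2, FIIN-3+FGF2 and most fulvestrant arms, and FIIN-3 alone in FGFR2_N550K and the FGF3 line. Set 2 (48 groups) held the other palbociclib arms, with and without fulvestrant, FIIN-3 alone in every line, and the FGF3 group labelled control. Levels and tests were kept within a set.

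Proteins that enter the ER fold with the help of lumenal chaperones, and when unfolded proteins gather, sensors in the ER membrane start the unfolded protein response. ERN1 (IRE1) cuts the XBP1 messenger RNA so that its spliced form encodes an active transcription factor. ATF6 is cut in the Golgi to release another factor, and EIF2AK3 (PERK) phosphorylates eIF2alpha and slows translation. These factors raise chaperone genes and genes of ER associated degradation, which draws misfolded proteins out to the proteasome. In estrogen receptor positive breast cancer cells XBP1 is also known as an estrogen-responsive gene. Read counts per gene show neither the splicing of XBP1 nor the cleavage of ATF6.

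The promoters of the genes were searched for the known elements of this response. RefSeq's table on GRCh38.p14, which is not the build of the counts, held 300 bases (250 before to 50 after the start) for 33 of the 37 genes, and DERL1, DERL3, PDIA3 and SEC24D had no entry. The ER stress response element (ERSE, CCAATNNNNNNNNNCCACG, either strand) was in 6 of 33 member promoters (18.2%) and in 27 of 35116 promoters in all (0.0769%). ERSE-II (ATTGGNCCACG) was in 3 of 33 (9.09%) and in 19 in all (0.0541%). The core of the unfolded protein response element (TGACGTG) was in 1 of 33 (3.03%), HYOU1, where it overlaps an ERSE-II by 4 bases, and in 692 in all (1.97%). A match of letters is a description and no evidence of binding. The windows that hold ERSE or ERSE-II are shown 5′ to 3′ on the gene's strand with the match in capitals, ERSE first, then ERSE-II.
HSPA5 (chr9:125241379-125241421, - strand): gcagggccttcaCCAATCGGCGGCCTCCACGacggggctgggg
HSP90B1 (chr12:103930204-103930351, + strand): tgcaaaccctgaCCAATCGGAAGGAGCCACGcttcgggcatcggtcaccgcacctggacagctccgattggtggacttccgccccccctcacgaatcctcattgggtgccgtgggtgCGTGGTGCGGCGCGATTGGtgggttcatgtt
CALR (chr19:12938372-12938414, + strand): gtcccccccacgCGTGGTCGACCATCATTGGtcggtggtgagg
CANX (chr5:179698766-179698808, + strand): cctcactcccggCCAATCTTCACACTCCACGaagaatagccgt
CRELD2 (chr22:49918542-49918584, + strand): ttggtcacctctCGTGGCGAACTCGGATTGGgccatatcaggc
XBP1 (chr22:28800591-28800633, - strand): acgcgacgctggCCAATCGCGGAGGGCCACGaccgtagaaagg
HYOU1 (chr11:119057262-119057402, - strand): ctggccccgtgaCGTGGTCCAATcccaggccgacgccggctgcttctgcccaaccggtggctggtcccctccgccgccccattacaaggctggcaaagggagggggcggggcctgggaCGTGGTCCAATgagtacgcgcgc
HERPUD1 (chr16:56932013-56932047, + strand): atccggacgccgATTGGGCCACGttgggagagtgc
SDF2L1 (chr22:21642102-21642136, + strand): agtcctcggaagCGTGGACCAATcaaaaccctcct

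HSP90B1 held 2 ERSE and HYOU1 2 ERSE-II, and in CALR, CRELD2, HYOU1, SDF2L1 and for the second ERSE of HSP90B1 the element lay on the reverse strand. The genes shown include lumenal chaperones and co-chaperones that come back below (HSPA5, HYOU1, SDF2L1, CRELD2), the factor XBP1, and HERPUD1. In several contrasts HERPUD1 moved against most chaperones, and in others it moved with some of them.

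Total counts ran from 512961 to 13012180 in set 1 (median 7570052.5) and from 619509 to 4804935 in set 2 (median 2887186). Each overexpressed gene was high in its own line at DMSO. FGFR1 was at 8.47 ± 1.53 log2 CPM (SD) in the FGFR1 line and 2.77 ± 0.46 in the GFP line. FGFR2 averaged 7.35 to 9.15 in the FGFR2 lines and 3.89 in the GFP line, and FGF3 7.26 in the FGF3 line and -1.33 in the GFP line. Luminal epithelial markers summed to a median of 33100 CPM in set 1, while endothelial markers were at a median of 0 and blood markers at 1.17. Fibroblast markers were at a median of 23.31 and plasma cell markers at 53.55. In 14 libraries of set 1 and 2 of set 2, MT-RNR2 (mitochondrial 16S ribosomal RNA) took under 5% of counts, against medians of 18% and 18.9%. These are called the libraries that stand apart. For comparisons with FGF2, FIIN-3, trametinib or palbociclib that hold any of them, calls are also given without them. Levels of single genes include them. These libraries are spread unevenly over the arms. Apart stood 6 of 23 DMSO libraries of the FGFR2 lines, 1 of 5 of the FGFR1 line and 1 of 12 of the control lines, and 0 FGF2 libraries of any of them. In set 1 the treatments also differ in the ranges of 96 title numbers they occupy, so a fit with this range as a term was made too, and the calls that it ended are named. In set 2 it ended no call of edgeR named below. In bulk libraries fewer cells of a type and less RNA per cell cannot be told apart.

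Levels between genes are compared per length, on the deposited log2(TPM + 1) scale, over the 45 DMSO libraries of set 1 (mean ± SD). The lectin chaperone CALR (9.71 ± 1.17), which holds glycoproteins while they fold, and the disulphide isomerase P4HB (9.28 ± 1.28) were the most abundant, followed by the lumenal chaperones HSPA5 (BiP, 8.72 ± 1.05) and HSP90B1 (GRP94, 8.57 ± 0.29). XBP1 was the fifth (8.08 ± 0.40) and stood far above the other sensors and factors. ATF6 was at 3.78 ± 0.76, CREB3L2, a membrane-bound transcription factor, at 2.25 ± 0.65, EIF2AK3 at 1.05 ± 0.47 and ERN1 at 0.88 ± 0.46. The differences within the pairs CALR and P4HB and HSPA5 and HSP90B1 were smaller than the SD of either gene. Among the other lumenal chaperones and co-chaperones, SDF2L1 was at 7.94 ± 0.58, DNAJB11 at 6.75 ± 0.81, CRELD2 at 5.63 ± 0.60, DNAJC3 at 4.94 ± 0.47, HYOU1 at 4.85 ± 1.14, MANF at 4.71 ± 0.60 and DNAJB9 at 3.75 ± 0.85. DNAJB9, DNAJB11 and DNAJC3 are J-domain partners of HSPA5, HYOU1 is a large chaperone that exchanges the nucleotide of HSPA5, SDF2L1 works with DNAJB11, and MANF and CRELD2 are secreted ER stress proteins. The isomerases PDIA3, PDIA4 and PDIA6, which form and shuffle disulphide bonds, were at 7.90 ± 0.67, 6.37 ± 0.99 and 5.70 ± 1.09. The lectin chaperone CANX, the membrane-bound partner of CALR, was at 5.75 ± 0.66, and UGGT1, which marks misfolded glycoproteins for another round of folding, at 2.32 ± 0.49.

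Of the genes of ER associated degradation, the lectin OS9 was highest (6.87 ± 1.34) and the derlin DERL3 lowest (0.66 ± 0.42) of all 37. Between them lay EDEM2 (5.73 ± 0.81), EDEM1 (2.31 ± 0.57) and EDEM3 (2.16 ± 0.56), which trim mannose from misfolded glycoproteins. The ubiquitin ligase SYVN1 (HRD1) was at 5.56 ± 0.93, its partner SEL1L at 3.78 ± 0.70, HERPUD1, a part of the ligase complex, at 5.42 ± 0.98, and the channel proteins DERL1 and DERL2 at 5.40 ± 0.52 and 4.81 ± 0.31. The translocon subunits SEC61B and SEC61A1 were at 7.77 ± 0.59 and 7.0 ± 0.95, the translocon-associated SSR3 and SSR1 at 6.65 ± 0.23 and 4.68 ± 0.49, and SEC24D, a coat subunit of export vesicles, at 1.48 ± 0.58. WFS1, an ER membrane protein involved in calcium handling, was at 5.83 ± 1.11. The spread over libraries differed between genes: HYOU1 ran from 1.72 to 6.68 and OS9 from 3.04 to 8.15, while HSP90B1 kept within 8.01 to 9.04. These means, SD and ranges include the DMSO libraries that stand apart, 6 of the FGFR2 lines, 1 of the FGFR1 line and 1 of the control lines. Levels per length without them were not computed, and their part in the spread was not tested.

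**Figure D1:**
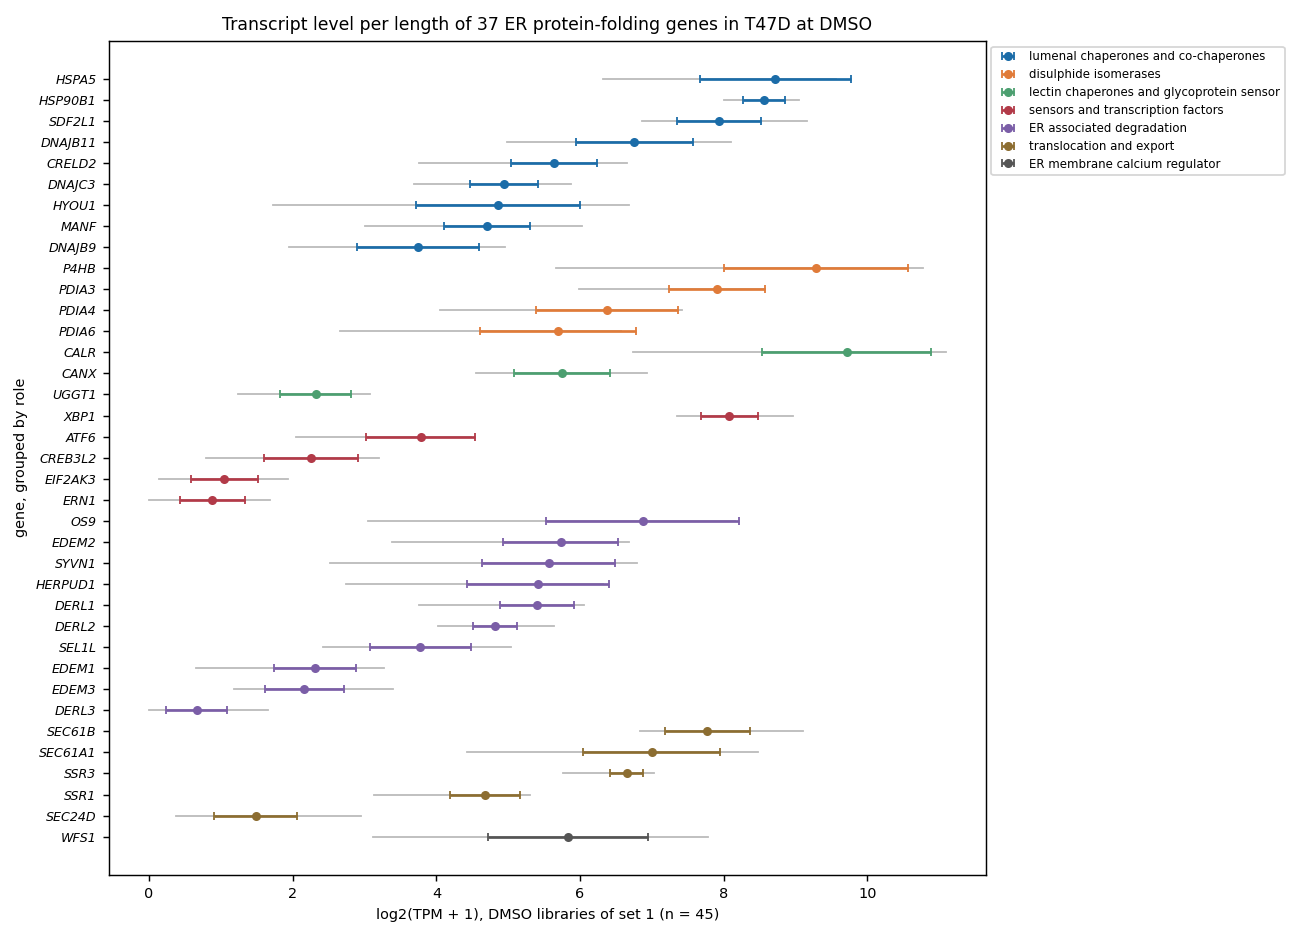
Transcript level per length at DMSO: the horizontal axis is log2(TPM + 1) as deposited, points are means over 45 libraries of set 1, coloured bars SD and grey lines lowest to highest, with genes grouped by role. CALR (9.71) is highest and DERL3 (0.66) lowest, and XBP1 (8.08) stands above the other sensors and factors.

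All comparisons below were made with edgeR's quasi-likelihood test on the counts. Higher, lower, rose and fell are used where the p, adjusted by Benjamini and Hochberg's method across the genes tested, was under 0.05. From here on, a value with ± is a log2 fold change and its standard error where SD is not named. The n gives the libraries of the first and second named arm. Levels of a gene are in log2 CPM (counts scaled to library size, with TMM within a set) and serve to compare libraries, not genes. At DMSO, edgeR called a single member between the lines and GFP. In counts simulated for FGFR2_N550K over GFP, edgeR recovered 13.7% of changes of 1 log2 unit and 77.6% of those of 2. Of the genes called there, 3.26% were false with edgeR and 27.2% with DESeq2. Counts of 0 called members at DMSO therefore do not show that the lines are alike. DNAJB11 was 7.64 ± 0.22 log2 CPM in the FGFR2_N550K line and 6.59 ± 0.40 in the GFP line (SD, n = 6 each), a difference of 1.0 ± 0.23, adjusted p = 0.04. With DESeq2 2 members passed, and with no filter on low counts or with limma on log2(TPM + 1) 0 did. Its 6 libraries in FGFR2_N550K lay between 7.38 and 7.99, with a median of 7.61, and the 6 GFP libraries between 6.06 and 7.21, with a median of 6.56. These groups did not overlap. The other FGFR2 lines had means (± SD) of 7.45 ± 0.14 (M538I), 7.42 ± 0.21 (WT) and 7.25 ± 0.32 (K660N), which did not pass the test. In FGFR2_N550K 1 of 37 tested members (2.7%) was higher and 0 lower, against 0.954% and 0.644% of all genes.

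In FGFR2_K660N edgeR called 0 members higher and 0 lower of 36 (n = 6 and 6; 0.923% and 0.591% of all genes). Here unadjusted p was below 0.05 for 1 higher and 1 lower, and DESeq2 called 0. In FGFR2_M538I edgeR called 0 members higher and 0 lower of 36 (n = 5 and 6; 0.0159% and 0% of all genes). Here unadjusted p was below 0.05 for 3 higher and 1 lower, and DESeq2 called 1. In FGFR2_WT edgeR called 0 members higher and 0 lower of 36 (n = 6 and 6; 0.00808% and 0% of all genes). Here unadjusted p was below 0.05 for 2 higher and 2 lower, and DESeq2 called 0. In FGFR1 edgeR called 0 members higher and 0 lower of 36 (n = 5 and 6; 0.00787% and 0% of all genes). Here unadjusted p was below 0.05 for 1 higher and 0 lower, and DESeq2 called 0. In FGF3 edgeR called 0 members higher and 0 lower of 36 (n = 5 and 6; 3.24% and 3.94% of all genes). Here unadjusted p was below 0.05 for 7 higher and 3 lower, and DESeq2 called 5. With the same 6 GFP libraries in each of these comparisons, their values are not independent of each other. For XBP1 the differences from GFP were 0.61 ± 0.30 in N550K, 0.79 ± 0.31 in M538I, 0.45 ± 0.28 in WT, 0.11 ± 0.24 in K660N, 0.33 ± 0.28 in the FGFR1 line and -0.33 ± 0.27 in the FGF3 line, with adjusted p of 0.443 or more. ATF6, ERN1 and EIF2AK3 lay between -0.80 and 0.53 in the 6 lines, with adjusted p of 0.476 or more. GFP replicate 6 stands apart; without it and the other such libraries 10 members passed in the FGF3 line, 3 in N550K and 2 in M538I. In the FGF3 line 4 of the 5 DMSO libraries were shallow, with under 0.33 of the median total count of set 1.

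Without drug, FGF2 raised HYOU1, SEC24D, DNAJB11 and DERL1 in both the FGFR2 lines and the FGFR1 line, also with the title-number range as a term. CANX, WFS1, ATF6 and UGGT1 were called higher in both as well, but with that term in the FGFR1 line only. In the FGFR2 lines 15 of 37 tested members (40.5%) were higher and 3 (8.11%) lower (n = 24 and 23). Over all genes tested these shares were 21.4% and 26.2%. The nucleotide exchange chaperone HYOU1 rose most (0.94 ± 0.15, adjusted p = 4.18e-06), followed by SEC24D (0.64 ± 0.17), the translocon channel SEC61A1 (0.59 ± 0.11), WFS1 (0.52 ± 0.15), ATF6 (0.52 ± 0.11), DNAJB11 (0.51 ± 0.16), EDEM1 (0.51 ± 0.13) and CANX (0.47 ± 0.14). The other 7 that rose, HSPA5, DNAJB9, P4HB, PDIA4, PDIA6, UGGT1 and DERL1, did so by 0.31 to 0.46. Lower were DERL3 (-1.0 ± 0.34), SEC61B (-0.91 ± 0.23) and SDF2L1 (-0.51 ± 0.21).

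Per library, HYOU1 was at 6.66, 7.08 and 7.55 log2 CPM (lowest, median and highest of 24 FGF2 libraries) and at 4.34, 6.30 and 6.92 in the 23 DMSO libraries of the FGFR2 lines. The groups overlapped at their edges, and the lowest DMSO values came from libraries that stand apart. HSPA5 was at 9.83, 10.20 and 10.67 with FGF2 and 8.31, 9.95 and 10.34 with DMSO. XBP1 was at 7.75, 8.81 and 9.57 with FGF2 and 8.0, 8.50 and 9.20 with DMSO, a difference of 0.18 ± 0.13, adjusted p = 0.255. SEC61B, which runs the other way, was at 6.27, 6.65 and 7.49 with FGF2 and 6.08, 6.84 and 9.47 with DMSO. Without the 6 DMSO libraries that stand apart 14 members were higher and 0 lower, and 10 of the 18 calls were kept, those of PDIA6, WFS1, DNAJB9, PDIA4, SEC61B, P4HB, SDF2L1 and DERL3 being lost. HYOU1 then rose by 0.67 ± 0.08, adjusted p = 4.96e-08, HSPA5 was at 0.19 ± 0.08, adjusted p = 0.0484 and XBP1 at 0.33 ± 0.13, adjusted p = 0.0523. The members that had been lower no longer passed: SEC61B was at 0.02, SDF2L1 at 0.24 and DERL3 at -0.64. With the title-number range as a term 11 were higher and 0 lower, and SDF2L1 was then higher (0.45 ± 0.13, adjusted p = 0.00657). With that term 5 of the 18 calls were kept (HYOU1, SEC24D, SEC61A1, DNAJB11 and DERL1), and WFS1 and P4HB, called higher above, turned to -0.0166 and -0.0432.

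In the FGFR1 line 9 of 36 tested members (25%) were higher and 1 (2.78%) lower (n = 6 and 5). Among all genes they were 14.4% and 17.3%. HYOU1 (1.34 ± 0.29, adjusted p = 0.00456), SEC24D (1.0 ± 0.28), DNAJB11 (0.95 ± 0.30), CANX (0.92 ± 0.32), WFS1 (0.91 ± 0.28), EDEM3 (0.79 ± 0.21), ATF6 (0.74 ± 0.19), DERL1 (0.71 ± 0.18) and UGGT1 (0.60 ± 0.18) rose, and SEC61B fell (-1.35 ± 0.49, adjusted p = 0.0465). The 6 FGF2 libraries held HYOU1 at 7.07, 7.38 and 7.59 (lowest, median and highest), and the 5 DMSO libraries at 6.25, 6.41, 4.27, 6.16 and 5.95. No DMSO library reached the lowest FGF2 library, and the value of 4.27 is the library that stands apart. For SEC61B the FGF2 libraries were at 6.23, 6.73 and 7.28 and the DMSO libraries at 6.70, 6.56, 9.56, 7.45 and 7.24, where 9.56 is the same library, and the groups overlapped. HSPA5 was at 10.09, 10.26 and 10.49 with FGF2 and 10.38, 10.24, 8.75, 9.56 and 9.78 with DMSO (0.42 ± 0.27, adjusted p = 0.235). XBP1 was at 8.09, 8.91 and 8.97 with FGF2 and 8.19, 8.19, 8.76, 8.22 and 8.59 with DMSO (0.23 ± 0.24, adjusted p = 0.483). ERN1 (0.86 ± 0.34, adjusted p = 0.0644) and EIF2AK3 (0.84 ± 0.35, adjusted p = 0.0782) did not pass. Without the library that stands apart (DMSO replicate 3) 13 members were higher and 2 lower, and SEC61B was at -0.30 ± 0.21, adjusted p = 0.272. With the title-number range as a term 16 were higher and 2 lower, and of the 10 calls that of SEC61B alone was lost. Without DMSO replicate 4, 5 members were called and without FGF2 replicate 1, 6, against 10 with all libraries.

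In the control lines FGF2 gave 0 calls: 0 of 37 members were higher and 0 lower with edgeR (n = 12 and 12; 3.7% and 2.42% of all genes), unadjusted p was below 0.05 for 1 higher and 2 lower, and DESeq2 called 1. Without the library that stands apart 0 were higher and 3 lower. HYOU1 was at 0.31 ± 0.18, adjusted p = 0.33, HSPA5 at -0.20 ± 0.14, XBP1 at 0.05 ± 0.13 and ATF6 at 0.10 ± 0.13. The difference in the FGF2 response itself was tested as an interaction. For the FGFR1 line minus the control lines 0 members were higher and 0 lower with edgeR (1.26% and 1.98% of all genes; unadjusted p was below 0.05 for 10 higher and 0 lower, and DESeq2 called 2). For the FGFR2 lines minus the control lines these were 0 and 0 (0.934% and 1.03% of all genes; unadjusted p was below 0.05 for 7 higher and 1 lower, and DESeq2 called 2). With the title-number range as a term 8 and 4 members passed for the FGFR1 and FGFR2 lines, and without the libraries that stand apart 3 and 1, so that the call depends on these choices.

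With fulvestrant present, FGF2 raised HYOU1, DNAJB11, EDEM1, ATF6 and SEC61A1 in the receptor lines. For the FGFR2 lines 10 of 37 tested members (27%) were higher and 1 (2.7%) lower (n = 24 and 24). The shares over all genes were 16.9% and 20.3%. HYOU1 (0.72 ± 0.11, adjusted p = 6.84e-07), EDEM1 (0.49 ± 0.11), DNAJB11 (0.47 ± 0.13), EIF2AK3 (0.45 ± 0.15), SEC61A1 (0.43 ± 0.08), ATF6 (0.37 ± 0.09), CANX (0.33 ± 0.11) and SSR3 (0.30 ± 0.07) rose, as did DERL1 and EDEM3 by 0.29 and 0.26. HERPUD1 alone fell (-0.24 ± 0.10, adjusted p = 0.0388). Without the 2 Fulv libraries that stand apart 14 members were higher and 2 lower, and all 11 calls were kept. For the FGFR1 line 9 of 36 tested members (25%) were higher and 1 (2.78%) lower (n = 6 and 6). All genes tested gave 12.7% and 14%. DNAJB11 (0.90 ± 0.24), HYOU1 (0.83 ± 0.18, adjusted p = 0.00226), EDEM1 (0.70 ± 0.23), WFS1 (0.65 ± 0.23), SSR3 (0.60 ± 0.11), ATF6 (0.58 ± 0.14), DERL1 (0.56 ± 0.16), SEC61A1 (0.51 ± 0.12) and PDIA6 (0.31 ± 0.11) rose, and HERPUD1 fell (-0.55 ± 0.12, adjusted p = 0.00357). For the control lines 2 of 37 tested members (5.41%) were higher and 2 (5.41%) lower (n = 12 and 12). Of all genes tested, 7.02% were higher and 4.95% lower. EIF2AK3 (0.92 ± 0.27) and SSR3 (0.25 ± 0.08) rose, and HERPUD1 (-0.30 ± 0.08, adjusted p = 0.00613) and OS9 (-0.26 ± 0.08) fell. The calls of EDEM3, EIF2AK3, CANX and HERPUD1 were lost with the title-number range as a term in the FGFR2 lines, that of WFS1 in the FGFR1 line and that of SSR3 in the control lines.

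HYOU1 was at 6.57, 7.06 and 7.39 (lowest, median and highest) with Fulv+FGF2 and 4.27, 6.45 and 6.88 with Fulv in the FGFR2 lines (n = 24 each). The FGFR1 line had it at 6.85, 7.08 and 7.25 with Fulv+FGF2 and 5.48, 6.23 and 6.77 with Fulv (n = 6 each). Within the FGFR1 line the 6 libraries with FGF2 all lay above the 6 without, whereas the groups overlapped in the FGFR2 lines. HERPUD1 was at 5.93, 6.39 and 6.64 with Fulv+FGF2 and 6.72, 6.89 and 7.08 with Fulv in the FGFR1 line, again without overlap and in the opposite direction. The control lines had it at 6.44, 6.64 and 6.86 with Fulv+FGF2 and 6.65, 6.97 and 7.21 with Fulv (n = 12 each), with overlap. HSPA5 was at 9.97, 10.25 and 10.62 with Fulv+FGF2 and 8.33, 10.08 and 10.48 with Fulv in the FGFR2 lines (0.21 ± 0.10, adjusted p = 0.0842). XBP1 was at 7.93, 8.50 and 9.46 with Fulv+FGF2 and 7.88, 8.61 and 9.22 with Fulv there (-0.03 ± 0.13, adjusted p = 0.894), and at 0.16 ± 0.20, adjusted p = 0.594 in the FGFR1 line and 0.02 ± 0.12 in the control lines. ERN1 was at 0.24 ± 0.16, 0.09 ± 0.27 and -0.19 ± 0.24 in the FGFR2, FGFR1 and control lines, with adjusted p of 0.223 or more.

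In set 2, with palbociclib present, FGF2 raised all 9 members grouped as lumenal chaperones and co-chaperones in the FGFR2 lines. The lectin chaperone CALR, grouped apart from these, was not called. Within the FGFR2 lines 20 of 36 tested members (55.6%) were higher and 1 (2.78%) lower (n = 22 and 24). For all genes the shares were 18.5% and 20.7%. All 9 of 9 lumenal chaperones and co-chaperones rose: DNAJB11 (0.87 ± 0.07, adjusted p = 9.42e-16), MANF (0.77 ± 0.10), HYOU1 (0.64 ± 0.08), SDF2L1 (0.58 ± 0.08), CRELD2 (0.53 ± 0.08), DNAJB9 (0.52 ± 0.07), DNAJC3 (0.36 ± 0.07), HSPA5 (0.34 ± 0.06, adjusted p = 2.49e-06) and HSP90B1 (0.19 ± 0.05). Of the sensors and factors, EIF2AK3 (0.79 ± 0.23, adjusted p = 0.00484), XBP1 (0.44 ± 0.11, adjusted p = 0.00114) and ATF6 (0.30 ± 0.05, adjusted p = 6.34e-06) rose, while ERN1 (0.13 ± 0.18) did not pass. Translocation and export genes rose in 4 of 5: SEC24D (0.72 ± 0.14), SSR3 (0.35 ± 0.05), SEC61A1 (0.30 ± 0.06) and SSR1 (0.15 ± 0.04). Of 9 tested genes of ER associated degradation, EDEM1 (0.59 ± 0.13) and SYVN1 (0.26 ± 0.07) rose and OS9 fell (-0.28 ± 0.05, adjusted p = 6.94e-06). PDIA6 (0.15 ± 0.06) was the 1 of 4 isomerases that rose, and CANX (0.22 ± 0.08) the 1 of CALR, CANX and UGGT1.

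In the FGFR1 line 18 of 36 tested members (50%) were higher and 1 (2.78%) lower (n = 6 and 6). Over all genes tested these shares were 12.9% and 11.9%. DNAJB11 (1.17 ± 0.11, adjusted p = 4.21e-08), SDF2L1 (1.06 ± 0.13), SEC24D (1.03 ± 0.26), HYOU1 (0.92 ± 0.11), XBP1 (0.92 ± 0.20, adjusted p = 0.0015), MANF (0.81 ± 0.16), CRELD2 (0.75 ± 0.13) and DNAJC3 (0.58 ± 0.11) rose most, and OS9 fell (-0.32 ± 0.08). The other 10 that rose were SEL1L, EDEM3, HSPA5, DERL2, SYVN1, SEC61A1, ATF6, SSR3, SSR1 and PDIA6, by 0.25 to 0.51. ERN1 (0.17 ± 0.27) and EIF2AK3 (0.33 ± 0.34) did not pass. Within the control lines 0 of 36 members were higher and 0 lower with edgeR (n = 9 and 11; 0.778% and 0.331% of all genes), unadjusted p was below 0.05 for 2 higher and 0 lower, and DESeq2 called 1. Without the 1 Palbo library that stands apart edgeR called 1 member higher and 0 lower. With all libraries of the control lines DNAJB11 was at 0.77 ± 0.21, adjusted p = 0.0851, HSPA5 at 0.06 ± 0.15, XBP1 at 0.21 ± 0.17 and EIF2AK3 at 0.48 ± 0.29. The median log2 fold change was 0.20 over the members and -0.02 over all genes in the FGFR2 lines, 0.34 over the members and -0.01 over all genes in the FGFR1 line and 0.04 over the members and -0.01 over all genes in the control lines.

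The libraries show how far the arms are apart. For the FGFR1 line DNAJB11 was at 8.08, 8.40 and 8.57 (lowest, median and highest of 6) with Palbo+FGF2 and 6.91, 7.2 and 7.47 with Palbo. HSPA5 was at 10.72, 10.89 and 10.93 with Palbo+FGF2 and 10.25, 10.38 and 10.60 with Palbo in the same libraries. In both genes each of the 6 libraries with FGF2 lay above each of the 6 without. OS9 was at 7.81, 7.91 and 8.04 with Palbo+FGF2 and 8.10, 8.26 and 8.31 with Palbo, without overlap and in the opposite direction. XBP1 was at 9.0, 9.45 and 9.91 with Palbo+FGF2 and 7.93, 8.38 and 9.41 with Palbo, and here the highest Palbo library lay within the range of the FGF2 libraries. In the FGFR2 lines DNAJB11 was at 7.83, 8.38 and 8.74 with Palbo+FGF2 (22 libraries) and 6.95, 7.49 and 8.03 with Palbo (24 libraries). HSPA5 was at 10.65, 10.86 and 11.32 with Palbo+FGF2 and 10.19, 10.49 and 11.06 with Palbo, and XBP1 at 8.70, 9.41 and 10.20 with Palbo+FGF2 and 8.05, 8.75 and 9.98 with Palbo. These groups overlapped. In the control lines DNAJB11 was at 7.06, 7.39 and 7.73 with Palbo+FGF2 (9 libraries) and 4.89, 6.64 and 7.43 with Palbo (11 libraries). HSPA5 was at 10.26, 10.35 and 10.49 with Palbo+FGF2 and 8.82, 10.41 and 10.64 with Palbo, where the value of 8.82 is the Palbo library that stands apart.

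By line (mean ± SD, n = 5 or 6), DNAJB11 was at 8.43 ± 0.13 with Palbo+FGF2 and 7.37 ± 0.20 with Palbo in FGFR2_WT and 8.59 ± 0.13 with Palbo+FGF2 and 7.53 ± 0.29 with Palbo in FGFR2_M538I. It was at 8.32 ± 0.15 with Palbo+FGF2 and 7.65 ± 0.19 with Palbo in FGFR2_N550K and 8.13 ± 0.17 with Palbo+FGF2 and 7.35 ± 0.41 with Palbo in FGFR2_K660N. HYOU1 was at 7.53 ± 0.19 with Palbo+FGF2 and 6.64 ± 0.21 with Palbo in FGFR2_WT and 7.31 ± 0.67 with Palbo+FGF2 and 6.61 ± 0.29 with Palbo in FGFR2_M538I. It was at 7.47 ± 0.17 with Palbo+FGF2 and 6.90 ± 0.23 with Palbo in FGFR2_N550K and 7.32 ± 0.17 with Palbo+FGF2 and 6.96 ± 0.17 with Palbo in FGFR2_K660N, and 1 FGFR2_M538I library with FGF2 lay at 6.11. XBP1 was at 9.68 ± 0.34 with Palbo+FGF2 and 8.70 ± 0.69 with Palbo in FGFR2_WT and 9.58 ± 0.14 with Palbo+FGF2 and 9.11 ± 0.69 with Palbo in FGFR2_M538I. It was at 9.23 ± 0.15 with Palbo+FGF2 and 8.94 ± 0.21 with Palbo in FGFR2_N550K and 9.10 ± 0.27 with Palbo+FGF2 and 8.79 ± 0.34 with Palbo in FGFR2_K660N. For all 3 genes each of the 4 lines had the higher mean with FGF2. Averaged over the 37 members in log2 CPM, the difference made by FGF2 under palbociclib was 0.39 in FGFR2_WT, 0.38 in M538I, 0.17 in N550K and 0.16 in K660N. Without drug it was 0.44, 0.31, 0.21 and 0.08, and under fulvestrant 0.30, 0.20, 0.16 and 0.05, in the same order of lines. Without the libraries that stand apart these were 0.32, 0.18, 0.07 and 0.08 without drug, and 0.24, 0.20, 0.07 and 0.05 under fulvestrant. In each of the 3 backgrounds N550K and K660N had the smaller differences, with and without those libraries, though which of the 2 was smaller without drug changed. This order was seen in the data and was not tested.

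**Figure D2:**
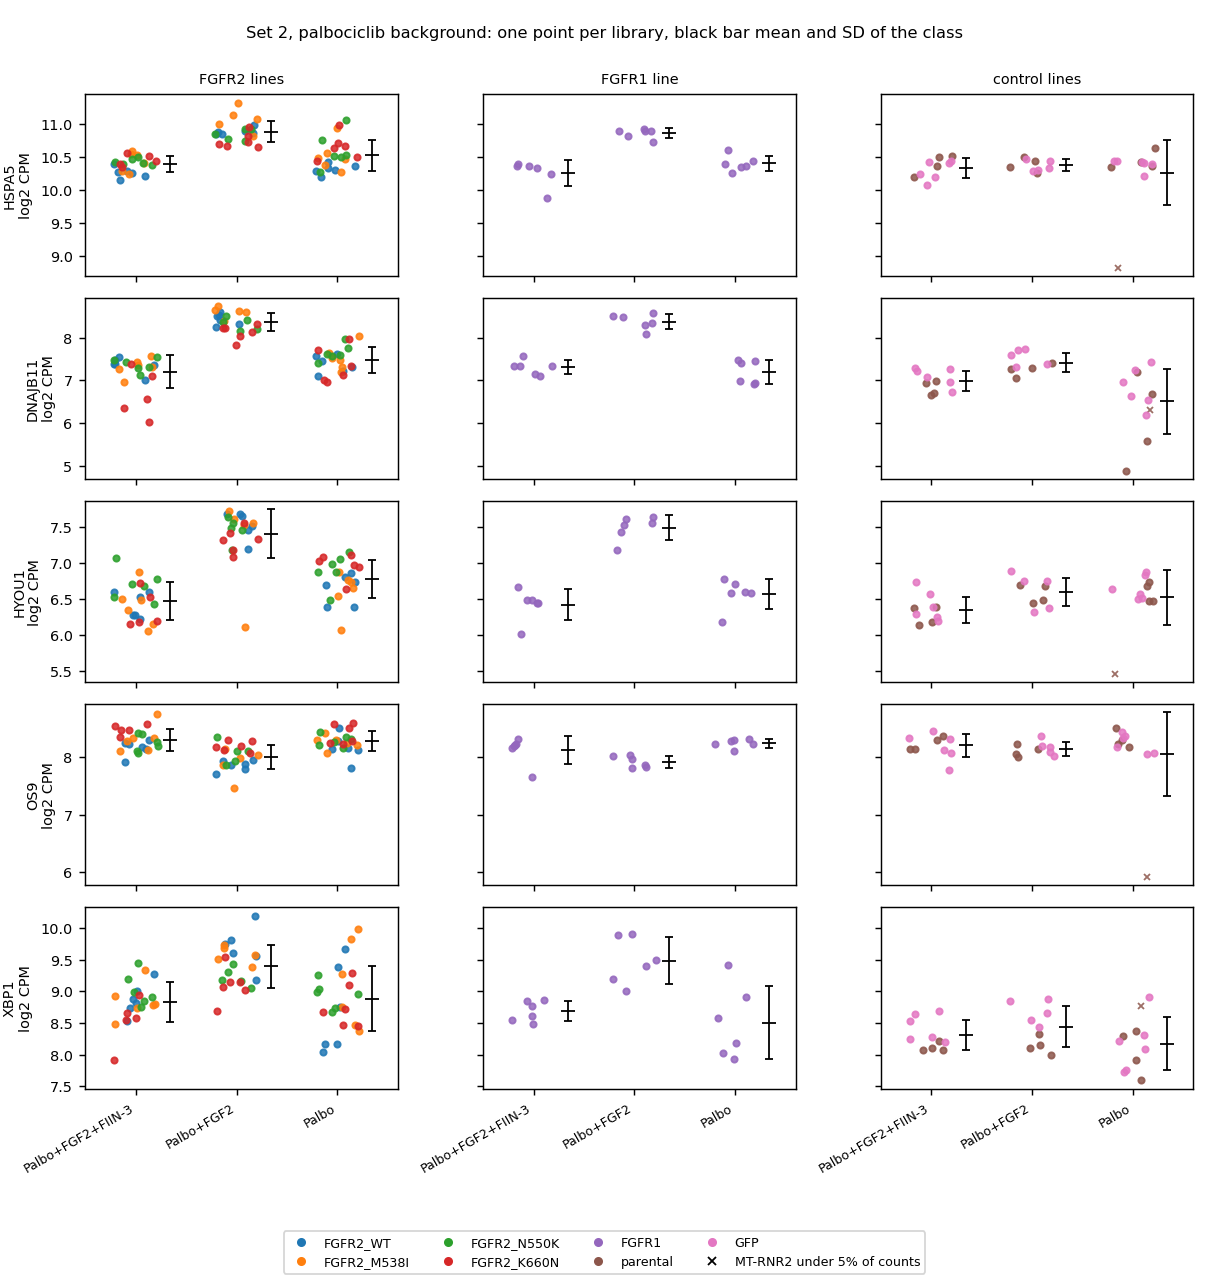
Set 2, palbociclib background: log2 CPM of HSPA5, DNAJB11, HYOU1, OS9 and XBP1 (rows) in the FGFR2, FGFR1 and control lines (columns) for Palbo+FGF2+FIIN-3, Palbo+FGF2 and Palbo, 1 point per library coloured by line, crosses for libraries with MT-RNR2 under 5% of counts, black bars mean and SD of the class. Within the FGFR1 line DNAJB11 lies at 8.08 to 8.57 with Palbo+FGF2, above 7.11 to 7.57 with FIIN-3 added and 6.91 to 7.47 with Palbo.

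Whether FGF2 acted differently in the receptor lines than in the control lines under palbociclib was tested as an interaction, a comparison chosen after seeing the data. With the FGFR1 line minus the control lines HYOU1 (0.89 ± 0.18, adjusted p = 0.00209) and DNAJC3 (0.73 ± 0.18, adjusted p = 0.0124) were higher and 0 lower of 36 (2.1% and 2.7% of all genes). Higher for the FGFR2 lines were MANF (0.89 ± 0.27, adjusted p = 0.0296), DNAJB9 (0.65 ± 0.15, adjusted p = 0.00441), HYOU1 (0.61 ± 0.15, adjusted p = 0.00614), DNAJC3 (0.50 ± 0.13, adjusted p = 0.00881) and SSR3 (0.48 ± 0.11, adjusted p = 0.00346), and 0 were lower of 36 (4.09% and 3.64% of all genes). DNAJB11 (0.41 ± 0.29 and 0.11 ± 0.18 for the FGFR1 and FGFR2 lines), HSPA5 (0.41 ± 0.19 and 0.30 ± 0.13) and XBP1 (0.73 ± 0.30 and 0.24 ± 0.22) did not pass. Without the 1 control library that stands apart, 9 members passed for the FGFR1 line and 6 for the FGFR2 lines, all higher. HSPA5 was among them (0.49 ± 0.09, adjusted p = 8.3e-05 and 0.38 ± 0.10, adjusted p = 0.00644), and MANF did not pass then in the FGFR2 lines (0.54 ± 0.21, adjusted p = 0.0964).

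The 3 FGF2 comparisons (without drug, with fulvestrant, with palbociclib) share no library. For the FGFR2 lines ATF6, CANX, DNAJB11, EDEM1, HYOU1 and SEC61A1 rose in all 3, which is 6 of the 15, 10 and 20 members that rose in each (40%, 60% and 30%). With the title-number range as a term ATF6, CANX and EDEM1 did not pass without drug, nor CANX with fulvestrant. In the FGFR1 line ATF6, DNAJB11 and HYOU1 rose in all 3, of 9, 9 and 18 (33.3%, 33.3% and 16.7%). For the control lines 0 did, where 0, 2 and 0 were called higher in each. Of all genes, 21.4%, 16.9% and 18.5% were higher in the 3 comparisons of the FGFR2 lines, and 14.4%, 12.7% and 12.9% in the FGFR1 line. How many of all genes rose in all 3 was not counted, so whether this recurrence is particular to the members is not known. HYOU1 was at 0.94 ± 0.15, 0.72 ± 0.11 and 0.64 ± 0.08 in the FGFR2 lines and at 1.34 ± 0.29, 0.83 ± 0.18 and 0.92 ± 0.11 in the FGFR1 line. The control lines had 0.31 ± 0.18, 0.21 ± 0.12 and 0.04 ± 0.13. SDF2L1 was at -0.51 ± 0.21, 0.01 ± 0.17 and 0.58 ± 0.08 in the FGFR2 lines, and the negative value was positive without the libraries that stand apart, as given above. XBP1 passed with palbociclib only, at 0.23 ± 0.24, 0.16 ± 0.20 and 0.92 ± 0.20 in the FGFR1 line. The difference between sets was not tested.

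**Figure D3:**
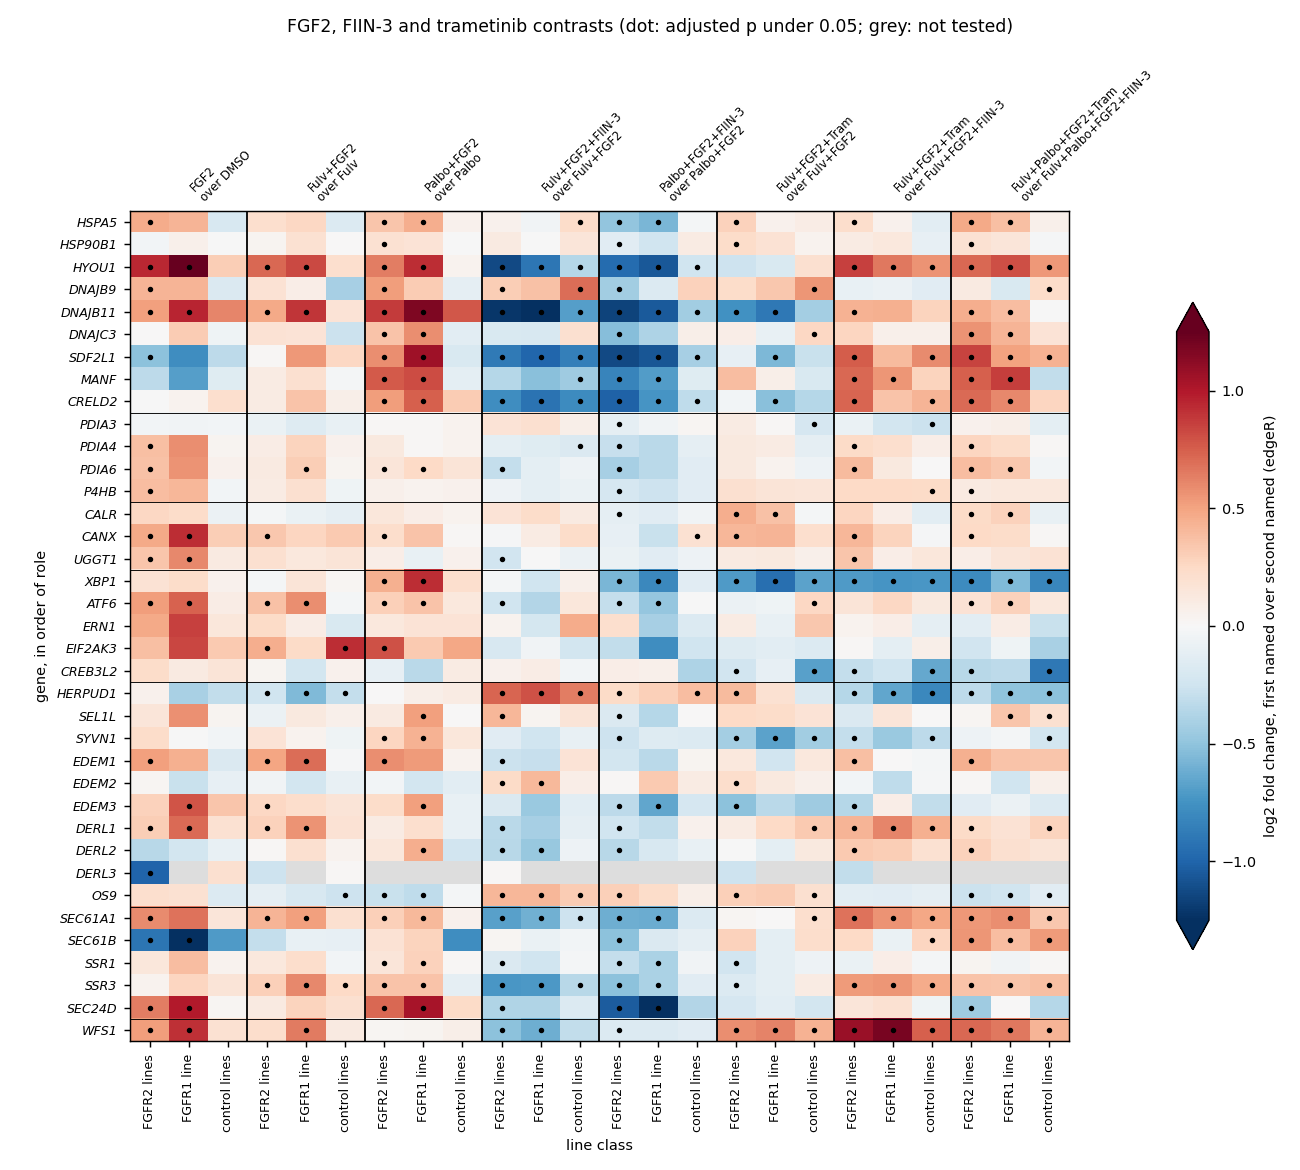
Log2 fold changes of the 37 genes (rows, by role) in 24 comparisons (columns, in blocks of FGFR2, FGFR1 and control lines), red for higher in the first named treatment, blue for lower, dots for adjusted p under 0.05 in edgeR, grey for not tested. Changes beyond the colour scale share its end colours. DNAJB11 in the FGFR2 lines is at 0.87 for Palbo+FGF2 over Palbo and at -1.16 for FIIN-3 added, and XBP1 is blue in all 9 trametinib columns (-0.94 to -0.55).

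FIIN-3 added to Palbo+FGF2 lowered most members in the FGFR2 lines, where 2 of 36 tested members (5.56%) were higher and 27 (75%) lower (n = 23 and 22). Among all genes they were 28.2% and 26.8%. This comparison uses the same Palbo+FGF2 libraries as the one above, so the values of both are not independent. All 9 lumenal chaperones and co-chaperones fell, from DNAJB11 (-1.16 ± 0.07, adjusted p = 1.17e-23) and SDF2L1 (-1.12 ± 0.08) to HSPA5 (-0.50 ± 0.04, adjusted p = 1.81e-16) and HSP90B1 (-0.14 ± 0.04). All 4 isomerases fell, with PDIA6 at -0.42, PDIA4 at -0.28, P4HB at -0.21 and PDIA3 at -0.11. All 5 translocation and export genes fell, with SEC24D at -1.04 ± 0.10, SEC61A1 at -0.61 ± 0.04, SSR3 at -0.51 ± 0.05, SEC61B at -0.51 ± 0.07 and SSR1 at -0.29 ± 0.04. XBP1 (-0.57 ± 0.08, adjusted p = 2.32e-09) and ATF6 (-0.30 ± 0.05, adjusted p = 1.02e-06) fell, and ERN1 (0.21 ± 0.17) and EIF2AK3 (-0.31 ± 0.23) did not pass. Of ER associated degradation, DERL2, EDEM3, SYVN1, DERL1 and SEL1L fell (-0.35 to -0.18), as did CALR (-0.11) and WFS1 (-0.17). OS9 (0.30 ± 0.05, adjusted p = 3.62e-07) and HERPUD1 (0.23 ± 0.06, adjusted p = 0.000286) were the 2 members that rose.

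For the FGFR1 line 0 of 36 tested members (0%) were higher and 13 (36.1%) lower (n = 6 and 6). The shares over all genes were 8.84% and 7.5%. SEC24D (-1.49 ± 0.30), SDF2L1 (-1.07 ± 0.20), HYOU1 (-1.06 ± 0.13, adjusted p = 1.83e-05), DNAJB11 (-1.05 ± 0.13, adjusted p = 1.81e-05), XBP1 (-0.81 ± 0.16, adjusted p = 0.00198), CRELD2 (-0.73 ± 0.14), MANF (-0.70 ± 0.21) and EDEM3 (-0.65 ± 0.19) fell most. They were followed by SEC61A1, HSPA5, ATF6, SSR3 and SSR1 (-0.62 to -0.39). ERN1 (-0.42 ± 0.29) and EIF2AK3 (-0.78 ± 0.38) did not pass. For the control lines 2 of 36 tested members (5.56%) were higher and 4 (11.1%) lower (n = 10 and 9). All genes tested gave 4.75% and 4.7%. DNAJB11 (-0.43 ± 0.07, adjusted p = 2.96e-05), SDF2L1 (-0.41 ± 0.11), CRELD2 (-0.32 ± 0.10) and HYOU1 (-0.25 ± 0.08) fell. HERPUD1 (0.38 ± 0.07, adjusted p = 0.00014) and CANX (0.19 ± 0.06) rose, and XBP1 was at -0.14 ± 0.07. Per library, DNAJB11 was at 6.04, 7.36 and 7.58 (lowest, median and highest) with FIIN-3 and 7.83, 8.38 and 8.74 without in the FGFR2 lines, which did not overlap. The FGFR1 line had it at 7.11, 7.34 and 7.57 with Palbo+FGF2+FIIN-3 and 8.08, 8.40 and 8.57 with Palbo+FGF2, also without overlap. HSPA5 was at 10.14, 10.39 and 10.59 with Palbo+FGF2+FIIN-3 and 10.65, 10.86 and 11.32 with Palbo+FGF2 in the FGFR2 lines and at 9.87, 10.34 and 10.39 with Palbo+FGF2+FIIN-3 and 10.72, 10.89 and 10.93 with Palbo+FGF2 in the FGFR1 line, without overlap in either. OS9 was at 7.91, 8.28 and 8.74 with Palbo+FGF2+FIIN-3 and 7.46, 8.01 and 8.36 with Palbo+FGF2 in the FGFR2 lines, with overlap. XBP1 was at 8.49, 8.69 and 8.87 with Palbo+FGF2+FIIN-3 and 9.0, 9.45 and 9.91 with Palbo+FGF2 in the FGFR1 line, where the arms did not overlap.

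In set 1, FIIN-3 added to Fulv+FGF2 called members in both directions, with more lower than higher in each line class. The shares higher were under those of all genes in the FGFR2 and FGFR1 lines and near that of all genes in the control lines. Within the FGFR2 lines 5 of 37 tested members (13.5%) were higher and 15 (40.5%) lower (n = 24 and 24). Of all genes tested, 30.3% were higher and 28.6% lower. DNAJB11 (-1.22 ± 0.15, adjusted p = 3.43e-10), HYOU1 (-1.13 ± 0.10, adjusted p = 6.58e-14), SDF2L1 (-0.88 ± 0.14), CRELD2 (-0.78 ± 0.12), SSR3 (-0.72 ± 0.06), SEC61A1 (-0.67 ± 0.09), WFS1 (-0.51 ± 0.11) and SEC24D (-0.38 ± 0.13) fell most. DERL2, DERL1, PDIA6, EDEM1, ATF6, UGGT1 and SSR1 fell by smaller amounts (-0.35 to -0.18). HERPUD1 (0.73 ± 0.08, adjusted p = 1.92e-11), OS9 (0.42 ± 0.12), SEL1L (0.42 ± 0.09), DNAJB9 (0.31 ± 0.10) and EDEM2 (0.24 ± 0.09) rose. Of these 5, 4 belong to ER associated degradation, but so do DERL1, DERL2 and EDEM1, which fell. XBP1 (-0.02 ± 0.13, adjusted p = 0.887), ERN1 (0.04 ± 0.15) and EIF2AK3 (-0.20 ± 0.15) did not pass. Without the 1 FIIN-3 library that stands apart 7 members were higher and 17 lower, and all 20 calls were kept. Within the FGFR1 line 3 of 36 tested members (8.33%) were higher and 8 (22.2%) lower (n = 6 and 6). For all genes the shares were 14.7% and 15.1%. DNAJB11 (-1.38 ± 0.26), SDF2L1 (-1.0 ± 0.20), CRELD2 (-0.92 ± 0.18), HYOU1 (-0.90 ± 0.15), SSR3 (-0.72 ± 0.11), WFS1 (-0.61 ± 0.20), SEC61A1 (-0.60 ± 0.14) and DERL2 (-0.47 ± 0.15) fell. HERPUD1 (0.80 ± 0.14), OS9 (0.41 ± 0.13) and EDEM2 (0.40 ± 0.15) rose. Within the control lines 4 of 36 tested members (11.1%) were higher and 8 (22.2%) lower (n = 11 and 12). Over all genes tested these shares were 10.9% and 13.8%. SDF2L1 (-0.86 ± 0.16), CRELD2 (-0.78 ± 0.20), DNAJB11 (-0.69 ± 0.20), MANF (-0.45 ± 0.15), HYOU1 (-0.36 ± 0.10), SSR3 (-0.35 ± 0.08), SEC61A1 (-0.26 ± 0.08) and PDIA4 (-0.18 ± 0.06) fell. DNAJB9 (0.70 ± 0.20), HERPUD1 (0.64 ± 0.08, adjusted p = 1.89e-07), OS9 (0.32 ± 0.06) and HSPA5 (0.23 ± 0.06) rose. The calls of UGGT1, SEC24D, SSR1 and EDEM2 were lost with the title-number range as a term in the FGFR2 lines, those of OS9 and EDEM2 in the FGFR1 line and those of SEC61A1, SSR3, HSPA5 and HYOU1 in the control lines.

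HERPUD1 was at 5.62, 6.90 and 7.31 (lowest, median and highest) with FIIN-3 and 5.89, 6.19 and 6.64 without in the FGFR2 lines (n = 24 each). It was at 6.83, 7.13 and 7.44 with Fulv+FGF2+FIIN-3 and 5.93, 6.39 and 6.64 with Fulv+FGF2 in the FGFR1 line (n = 6 each) and at 6.78, 7.29 and 7.65 with Fulv+FGF2+FIIN-3 and 6.44, 6.64 and 6.86 with Fulv+FGF2 in the control lines (n = 11 and 12). In the FGFR1 line the arms did not overlap, and in the FGFR2 lines the lowest FIIN-3 value came from a library that stands apart. DNAJB11 was at 5.86, 6.70 and 7.49 with FIIN-3 and 6.62, 8.0 and 8.86 without in the FGFR2 lines, and at 6.11, 6.59 and 7.54 with Fulv+FGF2+FIIN-3 and 7.34, 8.10 and 8.76 with Fulv+FGF2 in the FGFR1 line, with overlap in each. HSPA5 was at 9.58, 10.28 and 10.83 with Fulv+FGF2+FIIN-3 and 9.97, 10.25 and 10.62 with Fulv+FGF2 in the FGFR2 lines (0.05 ± 0.07, adjusted p = 0.566), whereas it fell in set 2. The difference between the sets was not tested. XBP1 was at -0.25 ± 0.19, adjusted p = 0.351 in the FGFR1 line and 0.07 ± 0.13, adjusted p = 0.755 in the control lines, and with the title-number range as a term it was higher in the control lines (0.31 ± 0.08, adjusted p = 0.00858).

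Trametinib, which acts below the receptors, lowered XBP1 in all 3 line classes of set 1. Against Fulv+FGF2 it was at -0.71 ± 0.13, adjusted p = 2e-05 in the FGFR2 lines, -0.94 ± 0.16, adjusted p = 0.000549 in the FGFR1 line and -0.67 ± 0.10, adjusted p = 5.52e-06 in the control lines. With the title-number range as a term these were -0.60, -0.66 and -0.44, each with adjusted p under 0.05. XBP1 was at 7.36, 7.93 and 9.01 (lowest, median and highest) with trametinib and 7.93, 8.50 and 9.46 without in the FGFR2 lines. It was at 7.51, 7.63 and 8.02 with Fulv+FGF2+Tram and 8.04, 8.58 and 9.17 with Fulv+FGF2 in the FGFR1 line and at 7.18, 7.31 and 7.43 with Fulv+FGF2+Tram and 7.33, 7.96 and 8.45 with Fulv+FGF2 in the control lines. The arms did not overlap in the FGFR1 line, 1 of the 12 control libraries without trametinib lay within the range with it, and the highest trametinib library of the FGFR2 lines is one that stands apart. WFS1 rose in the FGFR2 (0.58 ± 0.13, adjusted p = 0.000244), FGFR1 (0.62 ± 0.16, adjusted p = 0.0181) and control lines (0.43 ± 0.10, adjusted p = 0.00164). Its libraries were at 7.93, 8.10 and 8.38 with trametinib and 6.69, 7.55 and 7.94 without in the FGFR1 line, where the ranges overlapped by 1 library.

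In the FGFR2 lines 8 of 37 tested members (21.6%) were higher and 7 (18.9%) lower (n = 24 and 24). Among all genes they were 15.3% and 13.7%. Beside WFS1, CALR (0.46 ± 0.10), CANX (0.42 ± 0.12), HERPUD1 (0.39 ± 0.09), OS9 (0.30 ± 0.12), HSPA5 (0.29 ± 0.06, adjusted p = 0.000306), HSP90B1 (0.23 ± 0.07) and EDEM2 (0.22 ± 0.08) rose. Beside XBP1, DNAJB11 (-0.76 ± 0.14, adjusted p = 2.26e-05), EDEM3 (-0.51 ± 0.10), SYVN1 (-0.42 ± 0.11), SSR1 (-0.24 ± 0.06), CREB3L2 (-0.24 ± 0.09) and SSR3 (-0.17 ± 0.06) fell. Without the 1 trametinib library that stands apart 11 members were higher and 9 lower, and all 15 calls were kept. For the FGFR1 line 2 of 36 tested members (5.56%) were higher and 5 (13.9%) lower (n = 6 and 6). The shares over all genes were 5.48% and 5.83%. CALR (0.37 ± 0.08) rose beside WFS1. DNAJB11 (-0.89 ± 0.22), SYVN1 (-0.67 ± 0.16), SDF2L1 (-0.56 ± 0.16) and CRELD2 (-0.52 ± 0.16) fell beside XBP1. In the control lines 7 of 36 tested members (19.4%) were higher and 4 (11.1%) lower (n = 12 and 12). All genes tested gave 11.8% and 16%. DNAJB9 (0.55 ± 0.18), DERL1 (0.32 ± 0.10), ATF6 (0.26 ± 0.07), DNAJC3 (0.26 ± 0.10), SEC61A1 (0.21 ± 0.07) and OS9 (0.20 ± 0.07) rose beside WFS1. CREB3L2 (-0.67 ± 0.13), SYVN1 (-0.43 ± 0.12) and PDIA3 (-0.21 ± 0.07) fell beside XBP1. SYVN1 and XBP1 were the 2 members that fell in all 3 classes, which share no libraries. The 3 comparisons use the same Fulv+FGF2 libraries as those with FIIN-3 and palbociclib. With the title-number range as a term the calls of CREB3L2, SYVN1, OS9 and HSP90B1 were lost in the FGFR2 lines, those of DNAJB11, WFS1, SDF2L1 and CRELD2 in the FGFR1 line and those of ATF6, DNAJB9, DERL1, SYVN1 and DNAJC3 in the control lines, so that SYVN1 then fell in the FGFR1 line alone. DNAJB11 was at 5.88, 7.21 and 8.04 with trametinib and 6.62, 8.0 and 8.86 without in the FGFR2 lines, with overlap, and HSPA5 at 9.71, 10.56 and 11.04 with Fulv+FGF2+Tram and 9.97, 10.25 and 10.62 with Fulv+FGF2. ATF6 (-0.07 ± 0.07 and -0.05 ± 0.11), ERN1 (0.10 ± 0.17, -0.10 ± 0.23 and 0.34 ± 0.24) and EIF2AK3 (-0.16 ± 0.15, -0.13 ± 0.35 and -0.17 ± 0.24) did not pass in the FGFR2 and FGFR1 lines or, for ERN1 and EIF2AK3, in the control lines.

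**Figure D4:**
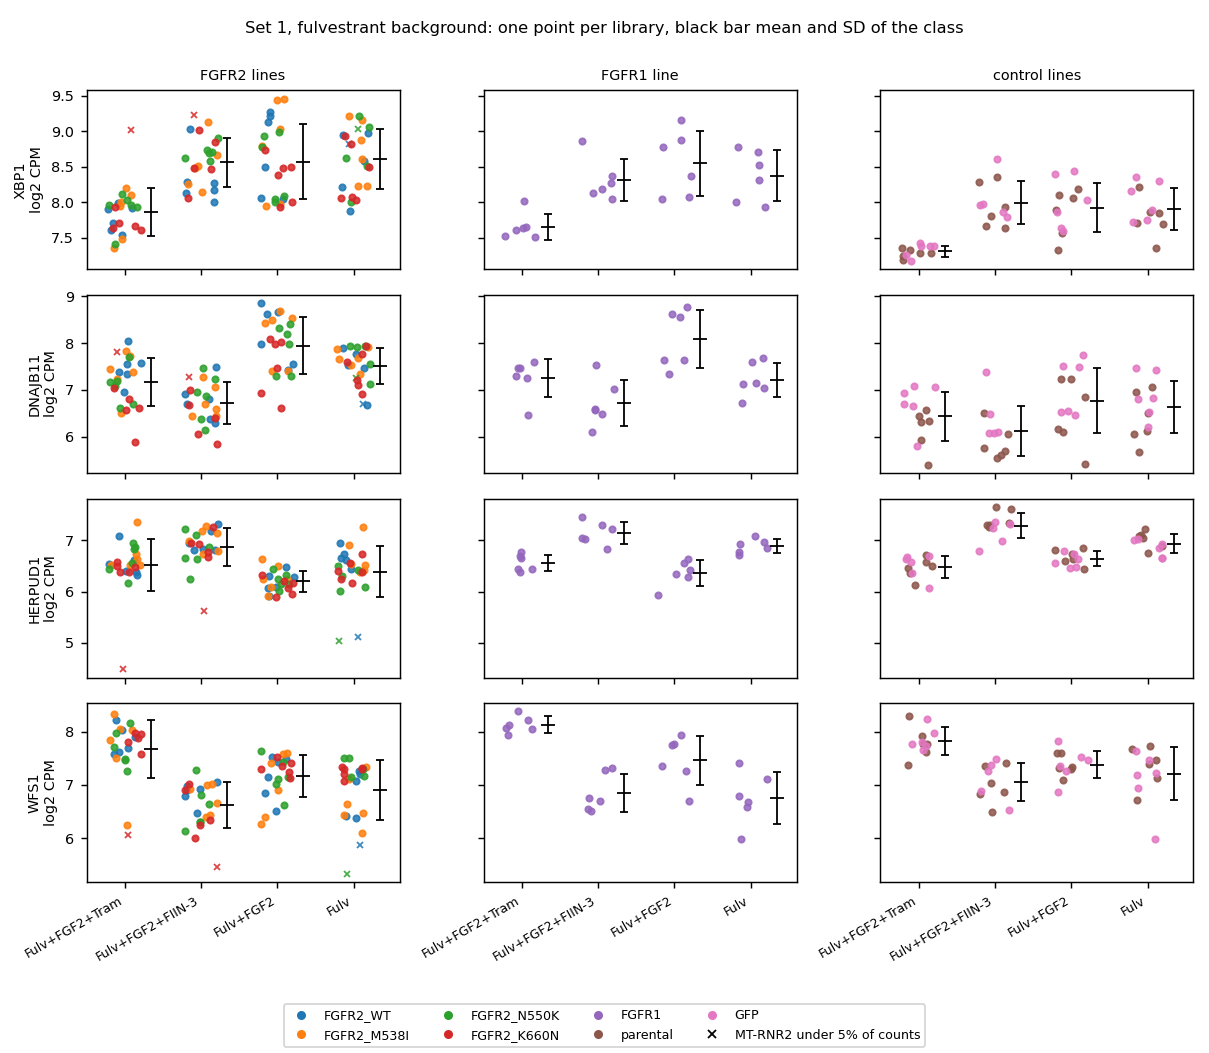
Set 1, fulvestrant background: log2 CPM of XBP1, DNAJB11, HERPUD1 and WFS1 (rows) in the FGFR2, FGFR1 and control lines (columns) for Fulv+FGF2+Tram, Fulv+FGF2+FIIN-3, Fulv+FGF2 and Fulv, 1 point per library coloured by line, crosses for libraries with MT-RNR2 under 5% of counts, black bars mean and SD of the class. XBP1 lies at 7.51 to 8.02 with trametinib in the FGFR1 line, below 8.05 to 8.86 with FIIN-3 and 8.04 to 9.17 with Fulv+FGF2.

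Trametinib and FIIN-3 were then set against each other in 2 backgrounds, a comparison chosen after seeing the data. In set 1, with Fulv+FGF2 in both arms and in the FGFR2 lines, 16 of 37 tested members (43.2%) were higher and 5 (13.5%) lower (n = 24 and 24). Of all genes tested, 25.5% were higher and 25.9% lower. Without the libraries that stand apart, 1 in each arm, 21 members were higher and 5 lower, and all 21 calls were kept. In set 1 and the FGFR1 line, 6 of 36 tested members (16.7%) were higher and 2 (5.56%) lower (n = 6 and 6). For all genes the shares were 13.6% and 16.4%. In set 1 and the control lines, 9 of 36 tested members (25%) were higher and 5 (13.9%) lower (n = 12 and 11). Over all genes tested these shares were 21.7% and 21.5%. In set 2, with Fulv+Palbo+FGF2 in both arms and in the FGFR2 lines, 21 of 36 tested members (58.3%) were higher and 5 (13.9%) lower (n = 23 and 22). Among all genes they were 26.1% and 29.6%. In set 2 and the FGFR1 line, 15 of 36 tested members (41.7%) were higher and 3 (8.33%) lower (n = 6 and 6). The shares over all genes were 12.6% and 12.5%. In set 2 and the control lines, 9 of 36 tested members (25%) were higher and 5 (13.9%) lower (n = 12 and 11). All genes tested gave 19.5% and 19.6%. XBP1 was lower with trametinib in all 6: -0.70 ± 0.11, adjusted p = 1.87e-07, -0.74 ± 0.14, adjusted p = 0.000379 and -0.73 ± 0.09, adjusted p = 9.76e-08 in set 1 (FGFR2, FGFR1 and control lines). In set 2 it was at -0.79 ± 0.11, adjusted p = 4.23e-09, -0.55 ± 0.11, adjusted p = 0.000222 and -0.81 ± 0.11, adjusted p = 9.82e-08. HERPUD1 was lower in all 6 as well, at -0.35 ± 0.10, -0.65 ± 0.12 and -0.81 ± 0.09 in set 1 and -0.33 ± 0.05, -0.50 ± 0.12 and -0.51 ± 0.07 in set 2. WFS1 was higher in all 6 (1.08 ± 0.12, 1.19 ± 0.15, 0.75 ± 0.12, 0.72 ± 0.05, 0.66 ± 0.10 and 0.42 ± 0.07). So were HYOU1 (0.54 to 0.85), SEC61A1 (0.34 to 0.68) and SSR3 (0.35 to 0.55). In set 1 the title-number range as a term ended the calls of EDEM3, PDIA6, PDIA4 and HSPA5 in the FGFR2 lines and of PDIA3 and P4HB in the control lines.

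Of the 9 lumenal chaperones and co-chaperones, 8, 7 and 3 were higher with trametinib than with FIIN-3 in the FGFR2, FGFR1 and control lines of set 2, and 6, 2 and 3 in those of set 1. None of these 6 comparisons called one lower. Of all genes, 26.1%, 12.6% and 19.5% were higher in set 2 and 25.5%, 13.6% and 21.7% in set 1. Lower were 29.6%, 12.5% and 19.6% in set 2 and 25.9%, 16.4% and 21.5% in set 1. The counts of 2 and 3 of 9 are not far from the shares higher over all genes. For the FGFR2 lines of set 2, SDF2L1 (0.85 ± 0.08), MANF (0.74 ± 0.12), HYOU1 (0.72 ± 0.06), CRELD2 (0.70 ± 0.08), DNAJC3 (0.56 ± 0.05), HSPA5 (0.47 ± 0.05, adjusted p = 3.15e-11), DNAJB11 (0.46 ± 0.09) and HSP90B1 (0.19 ± 0.04) were higher, and DNAJB9 (0.11 ± 0.08) did not pass. SDF2L1 was at 5.15, 6.11 and 6.66 (lowest, median and highest of 23) with trametinib and 4.78, 5.16 and 5.64 (of 22) with FIIN-3, with overlap. HSPA5 was at 10.63, 10.90 and 11.52 with Fulv+Palbo+FGF2+Tram and 10.09, 10.45 and 10.70 with Fulv+Palbo+FGF2+FIIN-3. It was at 10.74, 10.88 and 11 with Fulv+Palbo+FGF2+Tram and 10.39, 10.51 and 10.65 with Fulv+Palbo+FGF2+FIIN-3 in the FGFR1 line, where each of the 6 trametinib libraries lay above each of the 6 with FIIN-3. XBP1 was at 7.81, 8.37 and 8.54 with trametinib and 8.59, 8.81 and 9.06 with FIIN-3 in the FGFR1 line, without overlap. OS9 was lower with trametinib in the 3 classes of set 2 (-0.27 ± 0.04, -0.25 ± 0.09 and -0.15 ± 0.06). CREB3L2 was lower in the FGFR2 and control lines of both sets (-0.30 and -0.35 in the FGFR2 lines, -0.64 and -0.89 in the control lines). As a measure of the signal below the receptor, the ERK phosphatase gene DUSP6 was at -1.15 ± 0.29 and -1.30 ± 0.33 for trametinib over FIIN-3 in the FGFR2 lines, lower in both sets. It was at -3.98 ± 0.24 for FIIN-3 and -5.18 ± 0.12 for trametinib over Fulv+FGF2.

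Palbociclib added to Fulv+FGF2 raised HERPUD1 in all 3 line classes. Within the FGFR2 lines 9 of 36 tested members (25%) were higher and 2 (5.56%) lower (n = 24 and 24). Of all genes tested, 18% were higher and 17.6% lower. DNAJB9 (0.60 ± 0.12, adjusted p = 8.11e-05), SEC61B (0.53 ± 0.19), SEL1L (0.53 ± 0.10), HERPUD1 (0.50 ± 0.08, adjusted p = 1.28e-06), SEC24D (0.39 ± 0.15), HSPA5 (0.31 ± 0.09), DNAJC3 (0.27 ± 0.10) and EDEM2 (0.27 ± 0.07) rose, as did PDIA3 (0.21 ± 0.09). DNAJB11 (-0.50 ± 0.14, adjusted p = 0.00471) and SSR3 (-0.18 ± 0.05) fell. Within the FGFR1 line 1 of 36 tested members (2.78%) was higher and 0 (0%) lower (n = 5 and 6). For all genes the shares were 4.37% and 8.32%. The 1 called member was HERPUD1 (0.54 ± 0.13, adjusted p = 0.00766). There 3 members passed without Fulv+Palbo+FGF2 replicate 3 and 2 without Fulv+FGF2 replicate 4. For the control lines 4 of 36 tested members (11.1%) were higher and 4 (11.1%) lower (n = 12 and 12). Over all genes tested these shares were 11.3% and 14.6%. SEL1L (0.40 ± 0.13), OS9 (0.35 ± 0.08), HERPUD1 (0.31 ± 0.08) and HSPA5 (0.19 ± 0.07) rose. SDF2L1 (-0.81 ± 0.16), DNAJB11 (-0.77 ± 0.18), CRELD2 (-0.66 ± 0.19) and SSR3 (-0.33 ± 0.09) fell. The calls of SEC61B, DNAJC3 and PDIA3 were lost with the title-number range as a term in the FGFR2 lines and those of DNAJB11, HSPA5, SEL1L and CRELD2 in the control lines, and without the libraries that stand apart those of SEC61B and DNAJC3 in the FGFR2 lines. DNAJB9 was at 2.69, 5.39 and 5.99 (lowest, median and highest) with palbociclib and 3.91, 4.62 and 5.41 without in the FGFR2 lines. DNAJB11 was at 6.28, 7.58 and 8.26 with Fulv+Palbo+FGF2 and 6.62, 8.0 and 8.86 with Fulv+FGF2, with overlap in both. HSPA5 was at 9.27, 10.63 and 11.06 with Fulv+Palbo+FGF2 and 9.97, 10.25 and 10.62 with Fulv+FGF2 there; 2 of the 24 palbociclib libraries stand apart. XBP1 was at 0.23 ± 0.12, adjusted p = 0.135, 0.21 ± 0.18, adjusted p = 0.509 and 0.15 ± 0.11, adjusted p = 0.334 in the FGFR2, FGFR1 and control lines. ATF6 (-0.06, 0.00 and 0.08), ERN1 (0.19, 0.02 and 0.44) and EIF2AK3 (-0.18, 0.57 and -0.14) did not pass either.

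Fulvestrant alone moved a single member, and not by every test. In the FGFR2 lines SEL1L rose by 0.38 ± 0.10, adjusted p = 0.0297, the 1 of 37 called, with 0 lower (n = 24 and 23; 1.08% and 1.86% of all genes). SEL1L was at 5.68, 6.26 and 7.03 (lowest, median and highest) with Fulv and 4.81, 6.03 and 6.79 with DMSO, which overlapped widely. With no filter on low counts or with limma on log2(TPM + 1) 0 members passed there, with DESeq2 2, and with the title-number range as a term 7. In the FGFR1 line edgeR called 0 higher and 0 lower of 36 (n = 6 and 5; 0% and 0.0791% of all genes), unadjusted p was below 0.05 for 0 higher and 2 lower, and DESeq2 called 0. In the FGF3 line edgeR called 0 higher and 0 lower of 35 (n = 4 and 5; 0% and 0% of all genes), unadjusted p was below 0.05 for 0 higher and 0 lower, and DESeq2 called 0. Within the control lines edgeR called 0 higher and 0 lower of 37 (n = 12 and 12; 0.572% and 0.977% of all genes), unadjusted p was below 0.05 for 3 higher and 3 lower, and DESeq2 called 0. XBP1 was at 0.08 ± 0.11, 0.03 ± 0.24, 0.13 ± 0.15 and -0.03 ± 0.14 in the FGFR2, FGFR1, FGF3 and control lines, with adjusted p of 0.668 or more. The estrogen-induced gene CXCL12 was at -2.21 ± 0.13, -2.81 ± 0.28, -0.30 ± 0.24 and -3.43 ± 0.17 in the same comparisons. ATF6 lay between -0.10 and 0.25, ERN1 between -0.72 and 0.52, and EIF2AK3, untested in the FGF3 line, between -0.62 and 0.34.

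In the FGF3 line, which makes its own ligand and had no FGF2 arm, FIIN-3 added to fulvestrant was the treatment with calls. There 1 of 35 tested members (2.86%) was higher and 6 (17.1%) lower (n = 6 and 4). Among all genes they were 5.34% and 7.79%. HERPUD1 rose (0.75 ± 0.13, adjusted p = 0.000284), and SEC24D (-0.99 ± 0.33), SDF2L1 (-0.75 ± 0.22), WFS1 (-0.62 ± 0.13), HYOU1 (-0.50 ± 0.14, adjusted p = 0.0222), SEC61A1 (-0.46 ± 0.12) and PDIA6 (-0.42 ± 0.13) fell. HERPUD1, SDF2L1, HYOU1 and SEC61A1 had the same direction and passed the test in the FGFR2, FGFR1 and control lines with FIIN-3 added to Fulv+FGF2, though with the title-number range as a term HYOU1 and SEC61A1 did not pass in the control lines. With FIIN-3 added to Palbo+FGF2, HERPUD1 did not pass in the FGFR1 line (0.29 ± 0.14), nor SEC61A1 in the control lines (-0.17 ± 0.06). DNAJB11 was at -0.44 ± 0.23, adjusted p = 0.241. For trametinib edgeR called 0 higher and 0 lower of 36 (n = 6 and 4; 2.99% and 4.44% of all genes), unadjusted p was below 0.05 for 2 higher and 3 lower, and DESeq2 called 0, with XBP1 at -0.14 ± 0.12, adjusted p = 0.556. For palbociclib edgeR called 0 higher and 0 lower of 35 (n = 6 and 4; 1.47% and 5.56% of all genes), unadjusted p was below 0.05 for 4 higher and 2 lower, and DESeq2 called 0, with XBP1 at 0.39 ± 0.13, adjusted p = 0.0821. Depth was low, as 3 of 6 libraries with FIIN-3, 4 of 6 with palbociclib and 1 of 4 with Fulv were shallow. Leaving out Fulv replicate 1 or 4 or Fulv+FIIN-3 replicate 3 or 4 left 4 calls in place of 7.

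As the mean log2 CPM over the 37 members per library, a description without a test, libraries stood at 6.81 ± 0.10 with Palbo+FGF2 and 6.53 ± 0.09 with Palbo (difference 0.28) in the FGFR2 lines (SD over libraries). They stood at 6.81 ± 0.07 with Palbo+FGF2 and 6.47 ± 0.03 with Palbo (difference 0.34) in the FGFR1 line and at 6.48 ± 0.08 with Palbo+FGF2 and 6.39 ± 0.17 with Palbo (difference 0.09) in the control lines. Without the parental Palbo library that stands apart the last was 0.04. With FIIN-3 added to Palbo+FGF2, they stood at 6.46 ± 0.08 with FIIN-3 and 6.81 ± 0.10 with Palbo+FGF2 (difference -0.35) in the FGFR2 lines. The other classes stood at 6.40 ± 0.10 with FIIN-3 and 6.81 ± 0.07 with Palbo+FGF2 (difference -0.41) and 6.39 ± 0.07 with FIIN-3 and 6.48 ± 0.08 with Palbo+FGF2 (difference -0.08) (FGFR1 and control lines). In set 1 the differences for FGF2 over DMSO were 0.26, 0.43 and 0.09, and for Fulv+FGF2 over Fulv 0.18, 0.27 and 0.04. They were for FIIN-3 over Fulv+FGF2 -0.24, -0.25 and -0.06, and for trametinib over Fulv+FGF2 -0.04, -0.02 and 0.00. Without the libraries that stand apart FGF2 over DMSO gave 0.16, 0.35 and 0.04. For the FGFR2 lines Fulv+FGF2 over Fulv then gave 0.14, FIIN-3 -0.20 and trametinib -0.01. Trametinib called members in both directions. The median log2 fold change over the members tested was 0.26, 0.42 and 0.03 for FGF2 over DMSO in the FGFR2, FGFR1 and control lines. It was 0.11, 0.21 and 0.02 for Fulv+FGF2 over Fulv and -0.18, -0.21 and -0.05 for FIIN-3 over Fulv+FGF2. It was -0.30, -0.34 and -0.11 for FIIN-3 over Palbo+FGF2, and 0.10, -0.02 and 0.06 for trametinib over Fulv+FGF2. Over all genes the median lay between -0.11 and 0.04 in the 44 comparisons. In set 1 the highest group mean (± SD, as for those that follow) was 6.64 ± 0.06 in the FGFR1 line with Fulv+Palbo+FGF2 and the lowest 6.04 ± 0.21 in the FGFR2_WT line at DMSO, where 2 of 6 libraries stand apart. In set 2 they ran from 6.88 ± 0.15 in FGFR2_M538I with Palbo+FGF2 down to 6.32 ± 0.24 in parental cells with Palbo, where 1 of 5 libraries stands apart. Without it that mean was 6.42, and the lowest was 6.34 ± 0.15 in the FGF3 line with Fulv+Palbo+FIIN-3. FIIN-3 alone, present in both sets, gave 6.14 ± 0.26 (N550K) and 6.20 ± 0.12 (FGF3) in set 1, and in set 2 6.37 ± 0.05 in the FGFR1 line, 6.5 ± 0.10 in N550K and 6.42 ± 0.10 in the FGF3 line. Sets were scaled apart and are not compared. In set 2 the FGF3 line stood at 6.66 ± 0.07 with Palbo, 6.49 ± 0.06 with Palbo+FIIN-3, 6.34 ± 0.15 with Fulv+Palbo+FIIN-3, 6.48 ± 0.13 with Fulv+Palbo+Tram and 6.45 ± 0.23 in the group labelled control.

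**Figure D5:**
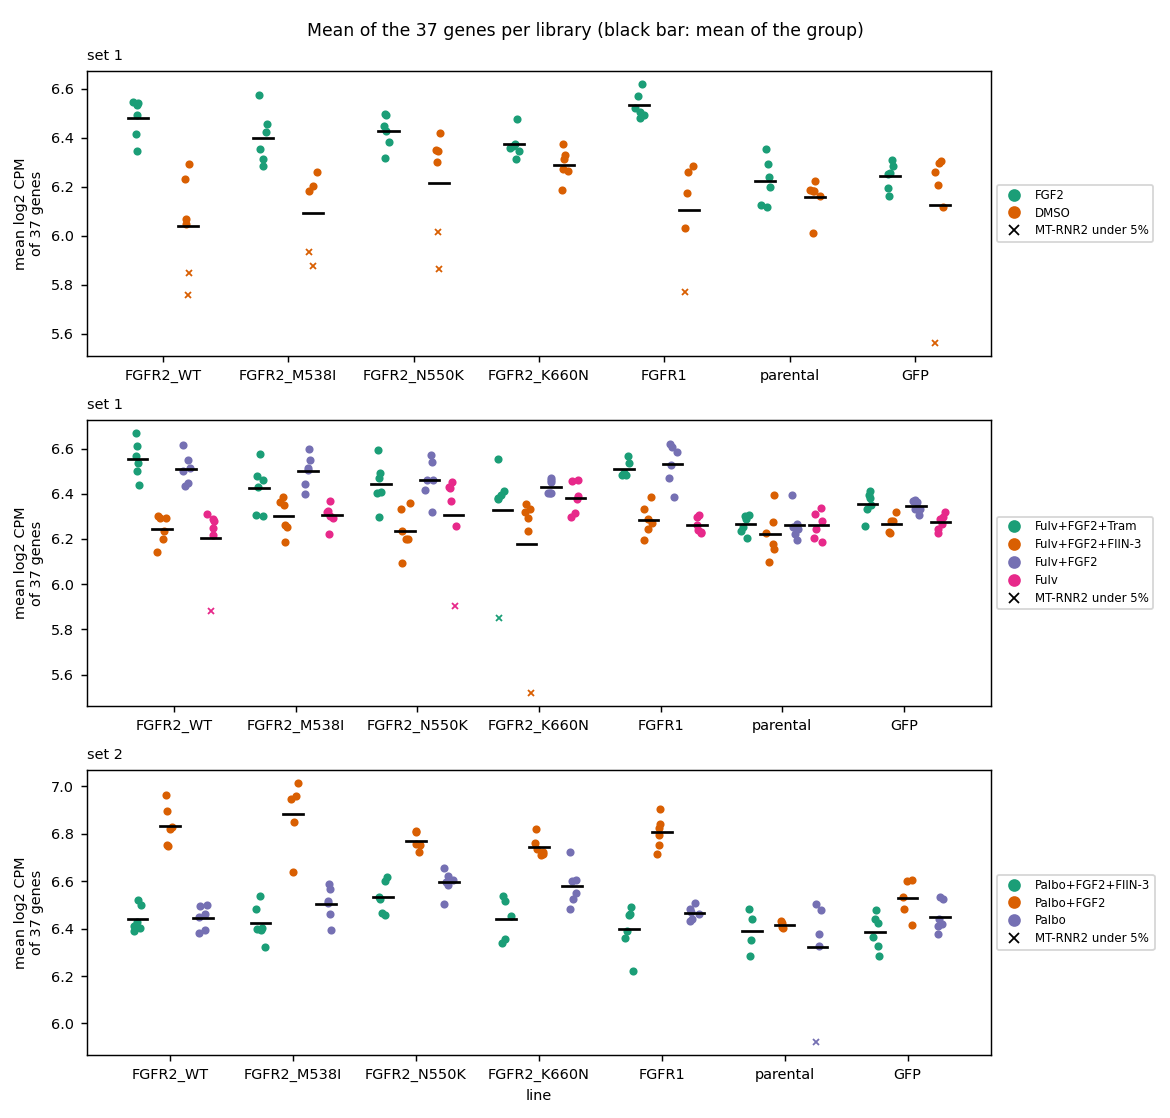
Mean log2 CPM of the 37 genes per library, by line (horizontal axis) and treatment (colour) for FGF2 and DMSO in set 1, the fulvestrant arms of set 1 and the palbociclib arms of set 2; black bars are group means and crosses libraries with MT-RNR2 under 5% of counts. The FGFR1 line stands at 6.81 ± 0.07 with Palbo+FGF2 against 6.47 ± 0.03 with Palbo, and the 6 crosses among DMSO libraries of the FGFR2 lines stand apart.

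Lists of related genes outside the 37 were read in the same comparisons. Of other ER folding and secretory genes, Palbo+FGF2 over Palbo gave 31 of 46 higher and 1 lower in the FGFR2 lines, 29 of 45 higher and 1 lower in the FGFR1 line and 0 of 46 higher and 0 lower in the control lines. Within the FGFR2 lines HSPA13, a microsomal chaperone of the HSP70 family, was at 0.80 ± 0.10, the signal peptidase subunit SPCS3 at 0.64 ± 0.09 and the oxidase ERO1A at 0.59 ± 0.08. Over all genes 18.5% were higher and 20.7% lower in the FGFR2 lines, 12.9% and 11.9% in the FGFR1 line and 0.778% and 0.331% in the control lines. The median of that list was 0.23, 0.37 and -0.04 in the 3 classes. FIIN-3 over Palbo+FGF2 gave 1 of 46 higher and 40 lower, 1 of 45 higher and 13 lower and 0 of 46 higher and 0 lower in these classes, against 28.2% and 26.8%, 8.84% and 7.5%, and 4.75% and 4.7% of all genes. Other genes of ER associated degradation were divided, with 7 of 22 higher and 4 lower for Palbo+FGF2 over Palbo and 6 of 22 higher and 9 lower for FIIN-3 in the FGFR2 lines. In the list for the integrated stress response, which EIF2AK3 and other kinases start, there were 9 of 21 higher and 2 lower for Palbo+FGF2 over Palbo and 5 of 21 higher and 8 lower for FIIN-3 in the FGFR2 lines. In the degradation list the shares lower with FGF2 and higher with FIIN-3 were near those of all genes. In the list for the integrated stress response they were near or under them. The cystine transporter SLC7A11 was at 1.8 ± 0.19 and -1.56 ± 0.16 in these, the factor DDIT3 (CHOP) at 0.82 ± 0.10 and -0.23 ± 0.11. TRIB3 was at 0.72 ± 0.10 and -0.57 ± 0.08, and NUPR1, in the opposite direction, at -0.97 ± 0.09 and 1.32 ± 0.07. Of cytosolic and mitochondrial heat shock genes, many of them known targets of HSF1, the same comparisons gave 14 of 20 higher and 0 lower and 2 of 20 higher and 14 lower. HSPH1 was at 0.93 ± 0.12 and -1.41 ± 0.09 and HSP90AA1 at 0.53 ± 0.05 and -0.74 ± 0.04. Whether one list moved more than another was not tested. DUSP6 was at 2.42 ± 0.16, 5.38 ± 0.18 and 3.09 ± 0.25 for Palbo+FGF2 over Palbo in the FGFR2, FGFR1 and control lines.

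Counted over the 40 comparisons of lines and treatments, which share libraries in part, members differed in how often they were called higher and lower. Among lumenal chaperones and co-chaperones these counts were HSPA5 (10 and 2), HSP90B1 (3 and 1), HYOU1 (12 and 7), DNAJB9 (7 and 1), DNAJB11 (10 and 10), DNAJC3 (6 and 1), SDF2L1 (7 and 10), MANF (6 and 3) and CRELD2 (6 and 8). The isomerases PDIA3 (1 and 3), PDIA4 (3 and 2), PDIA6 (7 and 3) and P4HB (3 and 1) and the lectin chaperones and sensor CALR (4 and 1), CANX (8 and 0) and UGGT1 (3 and 1) followed. Of the sensors and factors, XBP1 was called higher in 2 and lower in 11. ATF6 was called in 9 and 3, CREB3L2 in 0 and 6, and EIF2AK3 in 3 and 0 of 37. ERN1 was called in 0 of 40 by edgeR, had an unadjusted p below 0.05 in 3 and was called in 1 by DESeq2. Its level was low, and its lowest adjusted p was 0.0644. DERL3 passed the filter on low counts in 10 of the 40 and was called lower in 1. In ER associated degradation the counts were HERPUD1 (10 and 9), SEL1L (7 and 1), SYVN1 (2 and 7), EDEM1 (6 and 1), EDEM2 (4 and 0), EDEM3 (3 and 4), DERL1 (10 and 2), DERL2 (3 and 3) and OS9 (7 and 6). For translocation and export they were SEC61A1 (12 and 6), SEC61B (5 and 3), SSR1 (2 and 4), SSR3 (11 and 8) and SEC24D (5 and 5), and WFS1 was called higher in 12 and lower in 4. How often genes outside the list were called over the same 40 was not counted, so these totals have no background. Some comparisons called many genes: FIIN-3 over Fulv+FGF2 in the FGFR2 lines called 30.3% of all genes higher and 28.6% lower. Across the 64 groups of set 1, DNAJB11 had the widest span of group means among members that passed the filter in all comparisons (2.95 log2 CPM). It ran from 5.23 in FGFR2_N550K with FIIN-3 up to 8.18 in FGFR2_WT with Fulv+FGF2. PDIA3 had the narrowest (0.94). In the 48 groups of set 2 they were the same 2 genes, with 2.74 for DNAJB11 and 0.48 for PDIA3. DNAJB11 ran from 5.85 in the FGF3 line with Fulv+Palbo+FIIN-3 up to 8.59 in FGFR2_M538I with Palbo+FGF2.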

How the data were processed

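The deposited table of read counts holds raw counts for 54592 genes in 647 libraries. STAR and hg19 are the aligner and build that the submitters' processing notes name. The counting program, annotation and versions are not given in the sources used here. A second deposited table holds log2(TPM + 1) values, of which 133 columns (DMSO, Fulv and FGF2 libraries) were used for levels and an alternative test and 514 were not. Counts were filtered with filterByExpr (minimum count 10), scaled by TMM and tested with edgeR's quasi-likelihood test (edgeR 4.0.16, R 4.3.3), each comparison on its own libraries of 1 set, with an additive line term where a class held several lines, and Benjamini-Hochberg adjustment over all genes tested. The largest difference between DESeq2 size factors and TMM moved the median of all genes by 0.0329 (log2). Levels are log2 CPM with a prior count of 2. Alternatives were DESeq2 1.42.0 (test and size factors), limma 3.58.1, no filter, a term for the range of 96 title numbers, and leaving out libraries. The fits were tested on counts simulated for FGFR2_N550K over GFP at DMSO, as given above, and for FGF2 over DMSO in the control lines. In the latter edgeR recovered 81.4% of changes of 1 log2 unit, with 4.32% false among its calls. DESeq2 recovered 87.6%, with 11.2% false.

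The members, lists and comparisons were chosen with earlier results of these data known, and 8 of the 44 comparisons (trametinib over FIIN-3, and the FGF2 response under palbociclib between line classes) after these values were seen. Values per library are given for HSPA5, XBP1 and, in each family of comparisons, for the called member with the largest change in each direction in the class with most calls (mean log2 CPM of at least 3). Up to 8 called members per direction are named with values, as are XBP1, ATF6, ERN1 and EIF2AK3, and up to 5 called genes of each other list; further members were named after their values were seen. RefSeq promoters on GRCh38.p14 were searched for letters only. The labels do not say whether libraries of a group are separate cultures. No 2 columns of counts were identical.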

Additional observations from a re-analysis of the deposited data

Results flagged for a closer look

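The mean log2 CPM over the 37 members had 1 library far from the others of its group in 12 of the 64 and 48 groups of line and treatment of sets 1 and 2, where chance flags about 1 in 20. Among libraries that stand apart (MT-RNR2 under 5% of counts), GFP DMSO replicate 6 lay at 5.5594, against 6.12 to 6.31 in the others of its group. FGFR2_WT Fulv replicate 3 lay at 5.8819, against 6.22 to 6.31 in the others of its group, and FGFR2_N550K Fulv replicate 3 lay at 5.9033, against 6.26 to 6.45 in the others of its group. FGFR2_K660N Fulv+FGF2+Tram replicate 3 lay at 5.8512, against 6.38 to 6.55 in the others of its group. FGFR2_K660N Fulv+Palbo+FGF2 replicate 4 lay at 5.641, against 6.35 to 6.61 in the others of its group. FGFR2_K660N Fulv+FGF2+FIIN-3 replicate 1 lay at 5.5197, against 6.23 to 6.36 in the others of its group. FGF3 control replicate 3 lay at 5.988, against 6.47 to 6.64 in the others of its group. These last 4 were also shallow. All 7 were the lowest of their group. Among the others, FGFR2_M538I FIIN-3+FGF2 replicate 1 lay at 6.0721, against 6.19 to 6.23 in the others of its group, and it was shallow. Parental DMSO replicate 1 lay at 6.0102, against 6.16 to 6.22 in the others of its group. FGFR2_WT Fulv+Palbo+FGF2 replicate 6 lay at 6.3631, against 6.60 to 6.70 in the others of its group. Parental Fulv+FGF2 replicate 1 lay at 6.3959, against 6.20 to 6.27 in the others of its group, the highest of its group. FGFR1 Fulv+Palbo+FGF2 replicate 4 lay at 6.749, against 6.60 to 6.64 in the others of its group, also the highest. The part of the low share of MT-RNR2 in these values was not tested.

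The FGF2 response under palbociclib differed from that of the control lines by an interaction term in edgeR (adjusted p under 0.05 over all genes). The difference in log2 fold change, FGFR1 line minus control lines, was 0.8927 for HYOU1 and 0.7279 for DNAJC3. In the FGFR2 lines it was 0.8875 for MANF, 0.6501 for DNAJB9, 0.6104 for HYOU1, 0.4986 for DNAJC3 and 0.4761 for SSR3. HYOU1 and DNAJC3 passed in both, against the same control libraries, of which 1 stands apart; without it both passed again in both.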

How the results depend on the processing

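No paired analysis was possible because the replicate label holds the same value in every library and pairs none. Limma was not run for comparisons outside the DMSO, Fulv and FGF2 libraries, and a setting that changed no library gave no value. The cause of the changes below was not tested. The filter on low counts left EIF2AK3 in 37 and DERL3 in 10 of 40 comparisons.

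Counts of members called were within 1.5 times of the main count in 32 of 44 comparisons with no filter on low counts, 33 with DESeq2, 32 with the title-number range as a term and 43 with DESeq2 size factors. Over GFP at DMSO, N550K (1 call) gave 0 with no filter, 2 with DESeq2, 2 with the range term, 3 without libraries that stand apart and 0 with limma. K660N gave 1 with no filter, M538I 1 with DESeq2 and 2 without libraries that stand apart. FGF3 gave 1 with size factors, 3 with no filter, 5 with DESeq2, 10 without libraries that stand apart and 0 to 10 leaving out single libraries. For FGF2 over DMSO the control lines gave 2 (no filter), 1 (DESeq2), 2 (range term), 3 (without libraries that stand apart) and 1 (limma). The FGFR1 line (10) gave 18 with the range term, 19 with limma and 5 to 15 leaving out single libraries, and the FGFR2 lines (18) 11 and 32. The direction turned in the FGFR2 lines for WFS1 (-0.0166), SEC61B (0.0599), P4HB (-0.0432) and SDF2L1 (0.45) with the range term, for SEC61B (0.0201) and SDF2L1 (0.24) without libraries that stand apart, and for SDF2L1 (0.064) with limma.

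For Fulv over DMSO, no filter gave 2 in the control lines, 1 in the FGFR1 line and 0 in the FGFR2 lines, where DESeq2 gave 2, the range term 7 and limma 0. In the FGF3 line, FIIN-3 gave 11 with the range term, 4 without shallow libraries and 4 to 6 leaving out single libraries, trametinib 2 with the range term and 0 to 2, and palbociclib 2 with no filter, 1 with the range term and 0 to 2. In the FGFR1 line, trametinib over Fulv+FGF2 gave 3 with the range term, palbociclib 3 with no filter, 2 with DESeq2, 2 with the range term and 1 to 3 leaving out single libraries, and trametinib over FIIN-3 in set 1 gave 13 with DESeq2. In the control lines Palbo+FGF2 gave 2 with no filter, 1 with DESeq2 and 1 without libraries that stand apart, and FIIN-3 over it 3 with no filter. The FGF2 response over the control lines gave, for the FGFR1 line, 1 with no filter, 2 with DESeq2, 8 with the range term and 3 without libraries that stand apart, and for the FGFR2 lines 2, 4 and 1 with the last 3. Under palbociclib the FGFR1 line gave 4 with DESeq2 and 9 without libraries that stand apart. With the median over the members in place of their mean, the difference was -0.38 (FIIN-3) and -0.18 (trametinib) over Fulv+FGF2 in the FGFR1 line, and 0.33, 0.26 and 0.17 for trametinib over FIIN-3 in the FGFR2, FGFR1 and control lines of set 2. For the difference in member mean, Fulv+Tram over Fulv, FGF3 line, it was 0.0493, and the sign turned.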
